A study of Arabidopsis thaliana with 6 samples.

Results

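The 69 genes described here are encoded in the plastid genome of Arabidopsis thaliana, and each was read by 1 probe set of the Affymetrix ATH1 array. A probe set was a member if the single gene paired with it in the supplied probe table carried a plastid locus code. This held for 69 of the 13513 probe sets with a single gene, in a table of 22810 probe sets. Genes of the mitochondrial genome were left out.

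All plants were of the accession Landsberg erecta, 6 weeks old, and kept at 21 °C and 70% humidity with 16 h of light and 8 h of darkness a day. Each of the 6 arrays held RNA from tissue pooled from 12 plants, and each of 3 stages had 2 arrays from 2 independent runs of the experiment. The stages were unopened buds just short of pollination and open flowers that had been pollinated, both taken whole, and siliques 2 d after pollination freed of the withering flower organs. Arrays are named by stage and run, so that flowers 2 is the flower array of the second run.

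Plastid genomes descend from that of a cyanobacterium, and most of their genes lie in operons whose long transcripts are cut into many smaller RNAs. A bacterial-type RNA polymerase, whose core subunits are the rpo genes, transcribes most photosynthesis genes, while a nuclear-encoded phage-type polymerase serves several housekeeping genes. Nearly all plastid-encoded proteins belong to the photosynthetic complexes, the plastid ribosome or the bacterial-type polymerase, and each complex also needs nuclear-encoded subunits. Sepals and carpel walls are green, whereas open petals hold few chloroplasts.

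Values are MAS5 signals on a linear scale that is the same for all arrays. Changes are differences of log2(signal + 10) between stage means, given with limma's standard error, and a gene was called at a Benjamini-Hochberg adjusted p under 0.05 over the 12075 probe sets whose signal reached 50 on at least 2 arrays. Of the 69 plastid genes, 52 passed that filter and 17 did not. The filter can admit a gene through 1 stage alone: 33 of the 69 reached 50 on all 6 arrays, and 15 reached it on both bud and both silique arrays but not on both flower arrays. Whole tissues were measured, so fewer plastids or fewer green cells in a sample cannot be told apart from less plastid RNA in each cell.

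The 2 arrays of a stage correlated at 0.936 to 0.963 over the tested probe sets, and arrays of different stages at 0.733 to 0.870. The markers of the harvested organs followed the labels. They were chosen with earlier results of these data known, so this was no independent check. The tapetum genes A9 (AT5G07230), SHT and ATA27 read 195 to 1581 in buds and at most 49.6 in flowers and siliques. The nectary gene SWEET9 read 1272 and 1539 in flowers and at most 47.0 elsewhere. The terpene synthase gene AT3G25810 read 410.0 and 537 in flowers and at most 29.2 elsewhere. The seed coat gene BAN read 665 and 658 in siliques and at most 35.9 elsewhere. Among the tested plastid genes flowers 2 was the lowest of the 6 arrays for 38 of 52, against 15.0% of all tested probe sets. Siliques 2 was the highest array for 20 of the 52 and buds 2 for 18, against 18.5% and 16.4% of all tested probe sets. The hybridization spikes of siliques 2 read 1.85 times the median of the other arrays, with the other 5 arrays at 0.851 to 1.06 of theirs. A GAPDH control gave a ratio of its 3′ to its 5′ probe set of 0.967 and 1.02 in flowers and of 0.835 to 0.919 on the other 4 arrays. The same ratio of a further GAPDH control, an actin and a ubiquitin control overlapped between flowers and the other arrays. The part of RNA quality and spike level in the changes below was not tested.

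Plastid-encoded genes of most complexes gave their lowest signal on the flower arrays. Summed over the 69 genes, the signal was 25002 and 32423 in buds, 23678 and 19287 in flowers, and 30327 and 38890 in siliques. Both flower arrays lay below the other 4. As a share of all signal on the array the sum was 0.881% and 1.12% in buds, 0.820% and 0.659% in flowers, and 1.03% and 1.26% in siliques. After each gene was centred on its own mean, the median of the 52 tested genes was 0.05 and 0.37 log2 units on the bud arrays, −0.29 and −0.80 on the flower arrays, and 0.28 and 0.40 on the silique arrays. The same median over all tested probe sets stayed between −0.03 and 0.01.

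**Figure D1:**
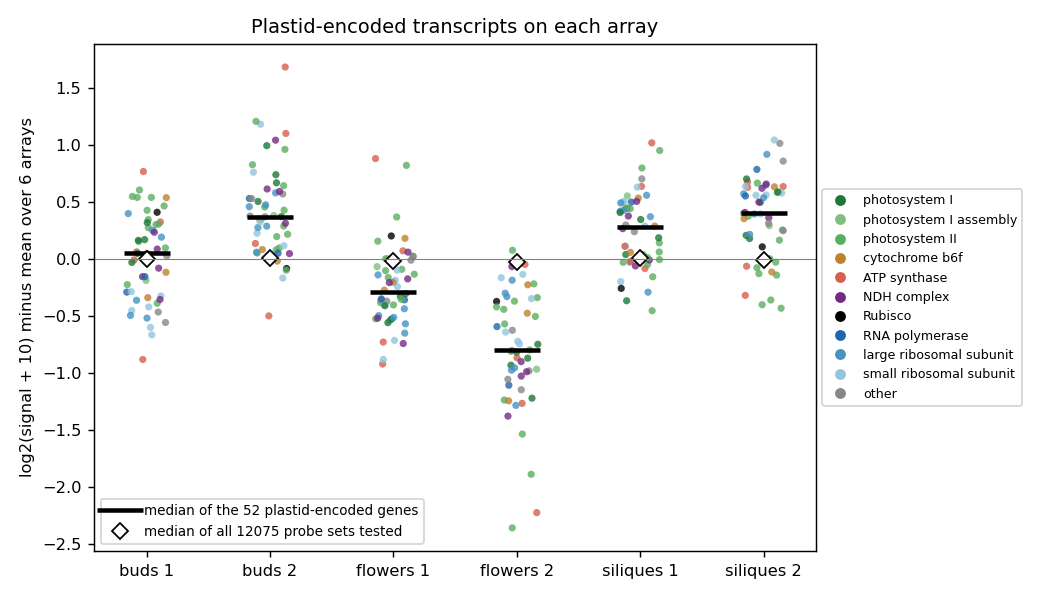
Each point is 1 of the 52 tested plastid-encoded genes on 1 array, as log2(signal + 10) minus its mean over the 6 arrays, coloured by complex; black bars are the medians of these genes and diamonds the medians of all 12075 tested probe sets. The plastid medians fall to −0.29 and −0.80 on the flower arrays while the medians of all probe sets stay near 0.

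From buds to flowers 10 of the 52 tested plastid genes fell and 0 rose, where 6.13% of all tested probe sets fell and 4.53% rose. Of these 10, only psbZ, psaJ and ndhI reached the filter signal on every array. The others (atpA, atpF, psaA, psbB, psbT, rpl14 and rpl16) reached it on all bud and silique arrays but not on both flower arrays. The same held for cemA and psaC, called in the other comparisons with flowers. The part of the filter in these calls was not tested. The median change of the 52 was −0.65, against −0.01 for all tested probe sets, and 49 of the 52 estimates were below 0. Both flower arrays lay below both bud arrays for 32 of the 52 genes, against 29.5% of all probe sets, and above them for 2 (atpH and rps4), against 25.8%. From flowers to siliques 13 rose and 0 fell, where 7.23% of all probe sets rose and 7.45% fell. The median change was 0.87, against 0.02 for all. Both silique arrays lay above both flower arrays for 41 genes, against 33.2% of all probe sets, and below them for 0, against 29.2%. These comparisons share the flower arrays and are not independent, so flowers were also set against the mean of buds and siliques in a single contrast. In that contrast 17 of 52 were lower in flowers and 0 higher, where 5.29% of all probe sets were lower and 5.46% higher, and the median was −0.76 against −0.03. Between siliques and buds none of the 52 was called by limma, where 7.03% of all probe sets were called higher and 8.52% lower, and 8 had an unadjusted p under 0.05, against 32.5% of all probe sets.

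The calls rested on few arrays. Leaving out 1 array leaves its stage with a single array, and the share of all probe sets then called is not given here. The counts of such fits, here and in later sections, therefore cannot be read as particular to the plastid genes. Without flowers 2 none of the 52 genes was called in any of the 3 comparisons with flowers. Flowers against buds gave 0 calls without buds 2 and 6 without siliques 1. Siliques against flowers gave 0 calls without either silique array and 6 without flowers 1. For flowers against the other stages the count was 6 without buds 2, 2 without siliques 1 and 5 without siliques 2. The direction of the median held in each case: it ranged from −1.01 to −0.38 for flowers against buds, from 0.62 to 1.14 for siliques against flowers, and from −1.10 to −0.56 for flowers against the mean of the other stages. Single calls carried the same dependence, and the highest adjusted p with 1 array left out is given for each complex.

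In all, 19 genes were called in at least 1 comparison, and 5 of them (psaA, psaJ, rpl14, rpl16 and ndhI) in all 3 that involve flowers. The other 33 tested genes were called in none. Over all 52, called or not, both flower arrays lay below all 4 other arrays for 29 genes, against 14.0% of all tested probe sets, and above them for 0, against 13.2%.

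**Figure D2:**
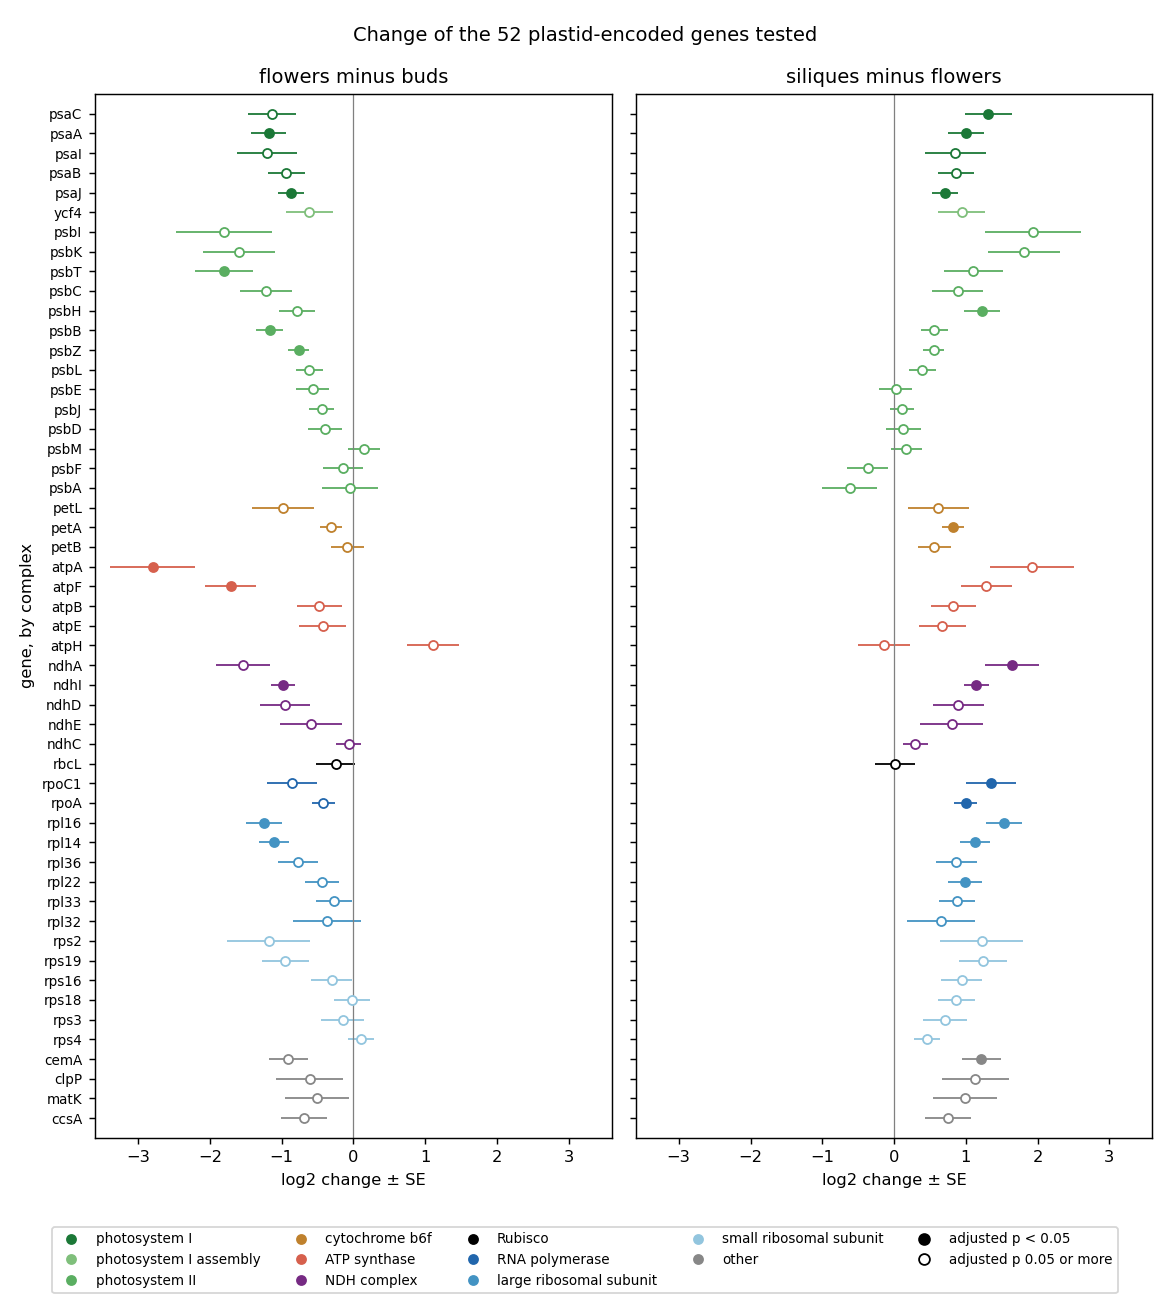
Each row is 1 of the 52 tested plastid-encoded genes, grouped by complex, with its log2 change and limma standard error for flowers minus buds (left) and siliques minus flowers (right), from 2 arrays a stage; filled points have an adjusted p under 0.05. The 10 filled points on the left lie below 0 and the 13 on the right above 0, and atpH stands apart on the left at 1.11.

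Photosystem I uses light to drive electrons from plastocyanin to ferredoxin. Its genes differed in signal level but had estimates of the same sign, below 0 into flowers and above 0 into siliques. All 5 plastid genes of the complex were tested, 2 fell from buds to flowers, 3 rose from flowers to siliques and 4 were lower in flowers than in the mean of the other stages. With the run as a block these counts were 2, 1 and 2. Without the block 6.13%, 7.23% and 5.29% of all tested probe sets were so called. The medians of the 5 genes were −1.13 and 0.87 for the first pair of comparisons. In all 5 genes both flower arrays lay below the other 4, against 14.0% of all tested probe sets.

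The large reaction-centre proteins come from neighbouring genes, psaA and psaB. For psaA (probe set 245007_at) the signal was 67.7 and 105 in buds, 38.0 and 26.2 in flowers, and 77.8 and 69.7 in siliques. It fell by 1.18 ± 0.25 log2 units into flowers (adjusted p = 0.0293) and rose by 1.01 ± 0.25 into siliques (adjusted p = 0.0430, or 0.05004 with the run as a block). The flower arrays held less than the dimmest bud or silique array. For psaB (245006_at) the arrays read 553 and 703 in buds, 390.2 and 265 in flowers, and 507 and 699.7 in siliques. The pattern was the same, with flowers at −0.90 ± 0.22 against the mean of the other stages (adjusted p = 0.0483, 0.0536 with the run as a block), while neither neighbouring comparison passed.

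PsaC carries the iron-sulphur clusters that pass electrons to ferredoxin. Its gene psaC (244932_at) read 77.8 and 132 in buds, 57.5 and 28.4 in flowers, and 109 and 125 in siliques. Flowers were again lowest on both arrays, the rise into siliques was 1.31 ± 0.33 (adjusted p = 0.0446, 0.0531 with the run as a block), and the change from buds, −1.13 ± 0.33, did not pass. Against the mean of the other stages flowers stood at −1.22 ± 0.29 (adjusted p = 0.0443, 0.0533 with the run as a block). The small membrane subunits are encoded by psaI and psaJ. The brightest probe set of the complex, psaJ (244967_at), read 1080.3 and 1121 in buds, 698 and 510.4 in flowers, and 984 and 979.8 in siliques. Its replicates were close in buds and in siliques, it fell by 0.87 ± 0.18 into flowers (adjusted p = 0.0262) and rose by 0.71 ± 0.18 into siliques (adjusted p = 0.0442). No test passed for psaI, whose estimates were −1.21 ± 0.42 and 0.86 ± 0.42. With 1 array left out the adjusted p of the photosystem I calls reached 0.248.

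Of the assembly factors of photosystem I, ycf4 (245018_at) read 64.9 and 101 in buds, 71.5 and 33.7 in flowers, and 115 and 94.6 in siliques, with flowers 1 inside the range of buds, and it was called in no comparison. The other one, ycf3, stayed below the filter.

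Photosystem II splits water, and its 15 plastid genes were spread widely in their changes. Of the 14 that were tested, 3 fell from buds to flowers, 1 rose from flowers to siliques and 4 were lower in flowers than in the mean of the other stages. Of all tested probe sets 6.13% fell, 7.23% rose and 5.29% were lower in these comparisons. The 1 rise, 7.14% of the 14, was near the share of all probe sets. The median change was −0.69 into flowers, and the median change into siliques was 0.47. Estimates into flowers ran from −1.81 ± 0.41 for psbT to 0.15 ± 0.22 for psbM.

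The inner antenna proteins are encoded by psbB and psbC. For psbB (244972_at) the signal was 125 and 135 in buds, 62.5 and 43.3 in flowers, and 80.8 and 82.7 in siliques. It fell by 1.17 ± 0.19 into flowers (adjusted p = 0.0106), and the change of 0.56 ± 0.19 into siliques did not pass (adjusted p = 0.0923). Siliques lay between the flower and the bud arrays without overlap. The estimate for psbC was −1.22 ± 0.36 from buds (adjusted p = 0.0867, 0.0255 with the run as a block) and −1.05 ± 0.31 against the mean of the other stages (adjusted p = 0.0775, 0.0295 with the block).

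Among the small subunits, psbT (244973_at) read 80.4 and 141 in buds, 39.5 and 12.6 in flowers, and 56.2 and 68.2 in siliques. The flower arrays were far apart, yet both lay below all others, and it fell by 1.81 ± 0.41 (adjusted p = 0.0382, 0.0523 with the run as a block). Against the mean of the other stages its adjusted p was 0.0488, or 0.0598 with the block. For psbH (244975_at), a small phosphoprotein, the arrays read 483 and 781 in buds, 391 and 319 in flowers, and 773 and 905 in siliques. It rose by 1.22 ± 0.25 from flowers to siliques (adjusted p = 0.0275), where both arrays exceeded buds 1 and lay around buds 2. For psbZ (245004_at) they read 264 and 272 in buds, 143 and 165 in flowers, and 221 and 239 in siliques. Here the runs were close, with a fall of 0.76 ± 0.14 into flowers (adjusted p = 0.0204) and siliques between flowers and buds (0.55 ± 0.14, adjusted p = 0.0504, 0.0411 with the run as a block). The brightest of the complex, psbM (245001_at), read 1931 and 2675 in buds, 2376 and 2668 in flowers, and 2447 and 3286 in siliques. The stages overlapped and none of its tests passed.

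The reaction-centre proteins that bind the primary electron donor come from psbA and psbD, and neither gene was called. For psbA the estimates were −0.05 ± 0.39 into flowers and −0.62 ± 0.39 into siliques, with 329.9 on flowers 1 and 132 on flowers 2, the widest pair of its 3 stages. For psbD they were −0.39 ± 0.24 and 0.13 ± 0.24. The subunits of cytochrome b559, psbE and psbF, gave −0.57 ± 0.23 (0.0444 adjusted with the run as a block) and −0.15 ± 0.28 into flowers. With 1 array left out the adjusted p of the photosystem II calls reached 0.207.

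The cytochrome b6f complex links the photosystems, and 3 of its 6 plastid genes were tested. For petA (245020_at), which encodes cytochrome f, the signal was 155 and 166 in buds, 138 and 118 in flowers, and 248 and 218 in siliques. It rose by 0.82 ± 0.15 from flowers to siliques (adjusted p = 0.0224) and was lower in flowers than in the mean of the other stages, with a difference of −0.56 ± 0.13 (adjusted p = 0.0453). Siliques exceeded every other array, and the change from buds of −0.31 ± 0.15 did not pass. For petB (244976_at), the cytochrome b6 gene and the brightest of the complex, the arrays read 1838 and 2466 in buds, 2019.6 and 1989 in flowers, and 2425 and 3616 in siliques. Flowers lay inside the bud range, and no comparison passed. With an estimate of −0.98 ± 0.43, the small subunit gene petL was called in no comparison. Leaving out 1 array took the adjusted p of the petA calls to at most 0.245.

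ATP synthase makes ATP from the proton gradient, and its 5 tested genes held both the lowest and the highest estimate into flowers of the 52. The gene of the alpha subunit, atpA (245024_at), read 416 and 795 in buds, 122 and 43.6 in flowers, and 498 and 191 in siliques. It fell by 2.80 ± 0.59 into flowers (adjusted p = 0.0294). The flower arrays were below all others, and the change into siliques of 1.92 ± 0.59 did not pass (adjusted p = 0.0741). For atpF (245025_at), which encodes a stalk subunit, the arrays read 87.3 and 157 in buds, 36.9 and 22.3 in flowers, and 111 and 64.3 in siliques. It fell by 1.71 ± 0.35 (adjusted p = 0.0282), and flowers were lowest on both arrays.

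The membrane ring subunit gene atpH (245026_at) went the other way. Its arrays read 57.3 and 77.7 in buds, 218 and 109.9 in flowers, and 107 and 183 in siliques. Both flower arrays and both silique arrays exceeded both bud arrays, with estimates of 1.11 ± 0.36 (adjusted p = 0.117) and 0.97 ± 0.36 (adjusted p = 0.123), so neither comparison passed. The genes of the beta and epsilon subunits are atpB and atpE. For atpB (245014_at), the brightest of the complex, the signal was 2468 and 2399.7 in buds, 2364 and 1292 in flowers, and 2553 and 3777 in siliques. Flowers 1 lay just below buds and flowers 2 far below, and neither atpB (−0.48 ± 0.31) nor atpE (−0.43 ± 0.33) was called. With 1 array left out the adjusted p of the atpA and atpF calls reached 0.183.

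The NDH complex feeds electrons back from ferredoxin into the chain around photosystem I. Of its 10 genes with a probe set 5 were tested, 1 fell into flowers, 2 rose into siliques and 2 were lower in flowers than in the mean of the other stages. The shares of all tested probe sets were 6.13%, 7.23% and 5.29%. For ndhI (244935_at), which carries iron-sulphur clusters, the signal was 1258 and 1329 in buds, 742 and 568 in flowers, and 1389 and 1513 in siliques. It fell by 0.98 ± 0.17 (adjusted p = 0.0141) and rose by 1.15 ± 0.17 (adjusted p = 0.0114). Its adjusted p in the single contrast, 0.00912, was the lowest of the 52 genes, and its flower arrays lay well below the others.

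For ndhA (244936_at), a membrane subunit, the arrays read 161 and 363 in buds, 98.4 and 59.7 in flowers, and 247 and 276 in siliques. It rose by 1.64 ± 0.38 into siliques (adjusted p = 0.0372), and the change into flowers of −1.54 ± 0.38 had an adjusted p of 0.0511. The brightest of the group, ndhC (245012_at), read 1104 and 1272 in buds, 1089 and 1175 in flowers, and 1223 and 1584 in siliques. Flowers 1 lay just below both bud arrays and flowers 2 between them, and its estimates were −0.07 ± 0.17 and 0.30 ± 0.17. The remaining members ndhD (−0.96 ± 0.35) and ndhE (−0.59 ± 0.44) were not called. With 1 array left out the adjusted p of the ndhI and ndhA calls reached 0.179.

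Rubisco fixes carbon dioxide, and its large subunit is encoded by rbcL (245015_at). The signal was 83.2 and 56.2 in buds, 70.7 and 44.2 in flowers, and 48.6 and 65.5 in siliques, on both sides of the filter. The stages overlapped, with estimates of −0.25 ± 0.28 into flowers and 0.01 ± 0.28 into siliques. MAS5 signals of different probe sets are not comparable as amounts, so this low signal says nothing of how much rbcL RNA there was beside the other genes.

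The core subunits of the bacterial-type RNA polymerase are encoded by rpoA, rpoB, rpoC1 and rpoC2, and rpoA and rpoC1 passed the filter. Both rose from flowers to siliques, as did 7.23% of all tested probe sets. For rpoA (244978_at) the signal was 308 and 357 in buds, 268 and 225 in flowers, and 490.3 and 509 in siliques. The stages did not overlap in any pair, and the rise was 1.00 ± 0.16 (adjusted p = 0.0141). Siliques also stood above buds by 0.58 ± 0.16, the lowest adjusted p among the 52 in that comparison, 0.0541. For rpoC1 (244998_at) the arrays read 166 and 300.4 in buds, 158 and 89.7 in flowers, and 282 and 360.4 in siliques. Its rise was 1.35 ± 0.35 (adjusted p = 0.0471, 0.0536 with the run as a block), and in run 1 flowers were near buds 1 while in run 2 they were far below buds 2. Leaving out 1 array took the adjusted p of these calls to at most 0.184.

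Plastid ribosomes need proteins of both genomes, and 12 of the 15 plastid ribosomal protein genes with a probe set were tested. Of 6 tested genes of the large subunit 2 fell into flowers and 3 rose into siliques, with medians of −0.61 and 0.93. Of all tested probe sets 6.13% fell and 7.23% rose. None of 6 tested genes of the small subunit was called by limma in any comparison, although their median into siliques was 0.90. In all 6 both silique arrays lay above both flower arrays, against 33.2% of all tested probe sets. At an unadjusted p under 0.05 the small subunit counted 4 genes from flowers to siliques and the large subunit 5, against 31.6% of all probe sets, and the difference between subunits was not tested.

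For rpl14 (244982_at) the signal was 79.4 and 94.4 in buds, 42.7 and 28.2 in flowers, and 87.2 and 88.8 in siliques. It fell by 1.11 ± 0.20 (adjusted p = 0.0184) and rose by 1.13 ± 0.20 (adjusted p = 0.0207), so that siliques lay inside the narrow range of buds. For rpl16 (244983_at) the arrays read 106 and 129 in buds, 58.3 and 31.6 in flowers, and 139 and 149 in siliques. The fall was 1.25 ± 0.25 (adjusted p = 0.0252) and the rise 1.53 ± 0.25 (adjusted p = 0.0159), with flowers lowest and siliques highest on both arrays. For rpl22 (244985_at) they read 431 and 682 in buds, 351 and 450.4 in flowers, and 787 and 813 in siliques. Here flowers 2 lay inside the bud range, and the rise into siliques of 0.99 ± 0.24 passed (adjusted p = 0.0415) while the change from buds did not. In the single contrast its adjusted p was 0.0755, or 0.0368 with the run as a block.

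The brightest probe set of the large subunit was rpl33 (244968_at), with 631 and 1084 in buds, 657 and 709 in flowers, and 1197 and 1332 in siliques. Both silique arrays exceeded all others, and its change of 0.88 ± 0.25 from flowers had an adjusted p of 0.0632, or 0.0332 with the run as a block. With the same block rpl36 passed in both neighbouring comparisons (0.0479 and 0.0305), against 0.149 and 0.0862 without it, and in the single contrast (0.0298, against 0.0781). The brightest of the small subunit was rps4 (245009_at), with 2202 and 2392 in buds, 2511 and 2446 in flowers, and 2907 and 4017 in siliques. Buds, flowers and siliques stood in ascending order without overlap, and the step from buds to siliques of 0.57 ± 0.18 had an adjusted p of 0.0796, or 0.0430 with the run as a block. The smallest and largest estimates into siliques within the small subunit were those of rps4 (0.46 ± 0.18) and rps19 (1.24 ± 0.33). With 1 array left out the adjusted p of the ribosomal protein calls reached 0.196.

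The remaining tested genes serve other tasks. For cemA (245019_at), which encodes a protein of the inner envelope, the signal was 103 and 135 in buds, 76.8 and 43.6 in flowers, and 171 and 128 in siliques. It rose by 1.22 ± 0.27 into siliques (adjusted p = 0.0352) from flower arrays that lay below all others, and flowers stood at −1.06 ± 0.24 against the mean of the other stages (adjusted p = 0.0398). With 1 array left out the adjusted p of these calls reached 0.194. For matK (245048_at), a maturase that helps introns to splice and the brightest of this group, the arrays read 692 and 1523 in buds, 788 and 659 in flowers, and 1003 and 2075 in siliques. Run 2 exceeded run 1 in buds and siliques but not in flowers, and no comparison passed. The protease gene clpP (1.13 ± 0.47 into siliques) and the cytochrome assembly gene ccsA (0.75 ± 0.32) were not called either.

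Genes of the same operon could have unlike estimates. The rps2 operon held the widest spread: atpA, atpF and rps2 were estimated at −2.80, −1.71 and −1.18 into flowers, and atpH, which lies between atpI and atpF, at 1.11. In the psbB operon psbB, psbT and psbH gave −1.17, −1.81 and −0.78, whereas petB at the other end of the tested genes gave −0.09. In the petL operon the estimates were −0.98 ± 0.43 for petL and −0.87 for psaJ, and −0.27 and −0.02 for the ribosomal protein genes rpl33 and rps18 that follow. Neither the spread within an operon nor the difference between its genes was tested.

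The 4 tested genes of the psbB operon and the 4 of the petL operon all had estimates below 0 into flowers and above 0 into siliques. The same signs held for all tested genes of some other operons. The 5 tested genes of the ndhH cluster (ndhA, ndhI, ndhE, psaC and ndhD) had estimates from −1.54 to −0.59 into flowers and from 0.80 to 1.64 into siliques, and 3 of them rose. The 7 tested genes from rps19 to rpoA had medians of −0.78 and 1.00, and 4 rose into siliques. Of all tested probe sets 7.23% rose into siliques. In the accD operon the 4 tested genes had medians of −0.76 and 0.90, with cemA and petA called in the second comparison.

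In the psbE operon of 4 photosystem II genes the median was −0.51 into flowers and 0.07 into siliques, and all 4 genes were lower on both silique arrays than on both bud arrays, a median change of −0.42, where 30.5% of all tested probe sets were lower without overlap. None of the 4 was called, though psbE passed with the run as a block (−0.55 ± 0.23, adjusted p = 0.0376). In the psbK operon, psbK and psbI gave −1.60 and −1.80 into flowers and were not called: their median was −0.38 in run 1 and −3.02 in run 2.

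**Figure D3:**
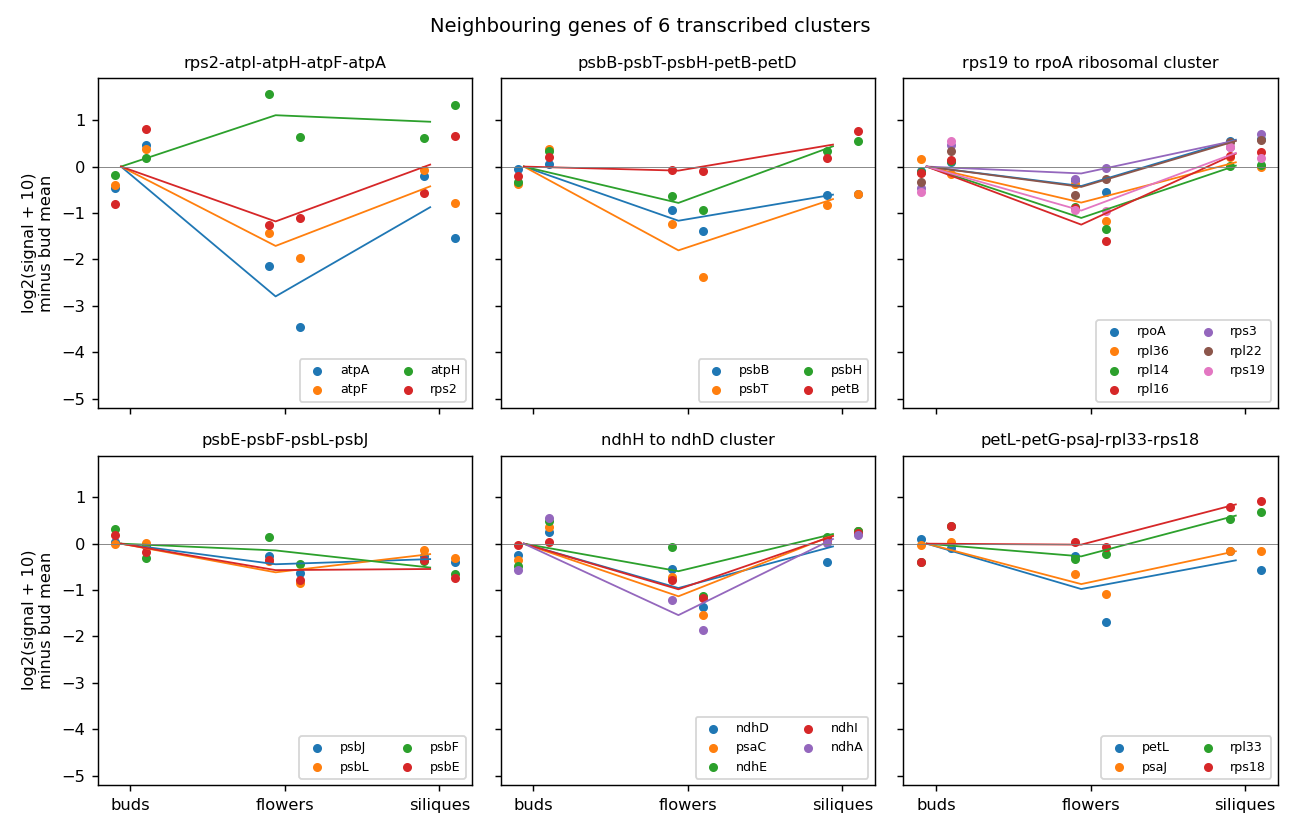
Each panel is 1 cluster of neighbouring plastid genes, with log2(signal + 10) minus the bud mean of the gene for each array (points, run 1 left and run 2 right) and the stage means joined by lines. The line of atpH stands at 1.11 in flowers where atpA fell by 2.80, and the psbE cluster stays low in siliques.

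In the comparisons with flowers the medians of both runs had the same sign and different sizes. From buds to flowers the median of the 52 genes was −0.29 in run 1, with 37 genes below 0, and −1.20 in run 2, with 50 below 0. From flowers to siliques it was 0.53 and 1.17, and from buds to siliques 0.25 in run 1 and −0.07 in run 2. Run 2 stood above run 1 in buds for 42 of the 52 genes (median 0.40) and below it in flowers for all but 8 (median −0.50), while the medians over all probe sets were 0.02 and −0.00. In siliques the runs were closer, with a median difference of 0.10.

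**Figure D4:**
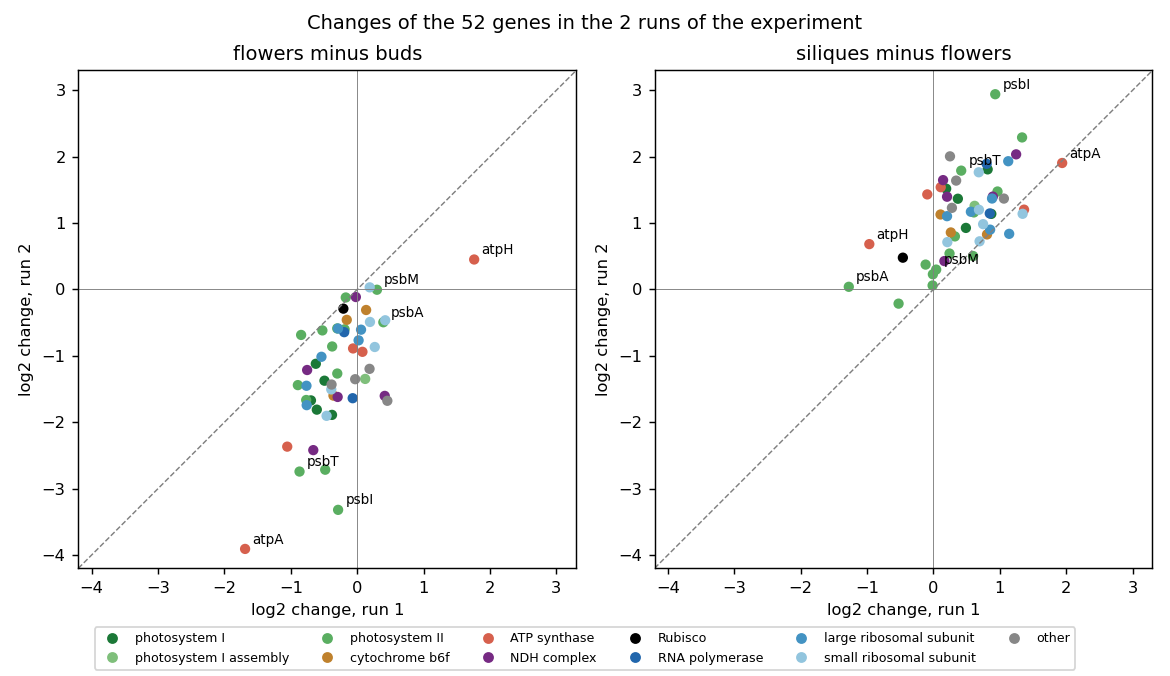
Each point is 1 of the 52 tested genes, with its log2 change in run 1 on the x axis and in run 2 on the y axis, for flowers minus buds (left) and siliques minus flowers (right); the dashed line marks equal change. Most points lie further from 0 on the run 2 axis, with medians of −0.29 and −1.20 on the left and 0.53 and 1.17 on the right.

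Between buds and siliques no gene of photosynthesis or of gene expression was called. All 14 tested genes of the ribosome and the polymerase had estimates above 0 (median 0.52), and in 7 of them both silique arrays exceeded both bud arrays, as in 30.5% of all tested probe sets. The 34 tested photosynthesis genes had a median of −0.11, with 15 estimates above 0 and 19 below. Without overlap 4 were higher and 11 lower, where each direction held 30.5% of all tested probe sets. Of these 11, 9 belonged to photosystem II, whose 14 genes had a median of −0.30 and none higher without overlap. The median 95% interval of the 52 genes reached 0.679 log2 units to each side, with 20 intervals inside 1 unit of 0.

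These medians moved with the bud arrays and the run. The median of the ribosome and polymerase genes was 0.69 in run 1 and 0.25 in run 2. It was 0.84 without buds 2, where 5 of them (rpl33, rps18, rps3, rpl22 and rps19) were called higher in siliques, and 0.18 without buds 1, where none was. For the photosynthesis genes the median was 0.02 in run 1, with 17 estimates on each side of 0, and −0.22 in run 2. It was 0.11 without buds 2, above 0, and −0.23 without buds 1. Photosystem II kept a median below 0 whichever array was left out (−0.38 to −0.22). The difference between the groups was not tested.

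The 17 genes below the filter were atpI, rpoB, rpoC2, petD, petG, petN, rps14, rps15, rpl20, ycf3, psbN, accD, ndhF, ndhG, ndhH, ndhJ and ndhK. Their signals ran from 1.70 to 53.9 except for psbN, which read 120 on siliques 2 and at most 37.3 on the other arrays. In 6 of them both flower arrays lay below the other 4 and in 2 (petG and ndhF, at most 11.0) above. The share of all probe sets below the filter in such an order is not given here, so these counts have no background. The median estimates of the 17 genes were −0.23 into flowers and 0.38 into siliques, on values too dim for a test.

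The nuclear genes of the same complexes were looked up by locus. Of 55 nuclear photosynthesis genes 12 were the single gene paired with a probe set in the supplied probe table, and all 12 were tested. From buds to flowers 1 of these fell, the minor antenna gene LHCB4.3 (−0.75 ± 0.18, adjusted p = 0.0476). The median was −0.08, against −0.77 for the 34 plastid photosynthesis genes, but the lists were not matched for signal level. Among the 52 plastid genes the median into flowers was −1.12 for the 12 with a mean signal under 100. It was −0.26 for the 8 at 1000 or more. The part of signal level in the gap between the lists was not tested. From flowers to siliques 8 rose, with a median of 0.61, most of all NdhN, an NDH subunit (0.93 ± 0.15, adjusted p = 0.0143). Against buds 5 were higher in siliques. The brightest, the Rubisco activase gene RCA, read 2373 and 2507 in buds, 2604 and 2894 in flowers, and 2928 and 3977 in siliques and was called in no comparison. Of all tested probe sets 6.13% fell from buds to flowers, 7.23% rose from flowers to siliques and 7.03% were higher in siliques than in buds.

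Of 26 nuclear genes of plastid ribosomal proteins 5 were tested. None changed from buds to flowers by limma, 0 had an unadjusted p under 0.05 there (25.0% of all probe sets did), and the median was 0.14. From flowers to siliques 4 rose (median 0.89), where 7.23% of all tested probe sets rose. Against buds 4 were higher in siliques (median 1.01), where 7.03% of all tested probe sets were. Of the 5, the largest rise was that of AT5G47190 (1.01 ± 0.14, adjusted p = 0.0101). The brightest of them was AT2G43030, with 1007 and 1233 in buds, 1349 and 1398 in flowers, and 1946 and 2257 in siliques. Of 40 nuclear genes of plastid transcription and RNA processing 2 were so paired. Only 1 of them passed the filter, AT5G42310, and it was called in no comparison. Whether plastid and nuclear genes differed in their change was not tested.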

How the data were processed

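RNA of 6 samples was labelled with biotin and read on Affymetrix ATH1 arrays. The deposited intensity values are MAS5 signals, per the submitters' processing notes, which give no version, settings or detection calls. How the RNA was primed is not given in the sources used here. Most plastid transcripts lack a stable poly(A) tail, and the part of priming in the signals was not tested. For arrays, their number (2 a stage) limits the precision.

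Genes came from the probe table and, for names and neighbours, from the RefSeq table of assembly TAIR10.1. Start coordinates served only to order the genes along the plastid genome, and no sequence was used. All 69 members matched by locus code. Signals were offset by 10, log2 transformed and fitted in limma 3.58.1 (R 4.3.3) by lmFit, contrasts.fit and eBayes, whose trend option was on, using all 6 arrays in 3 groups, for the 12075 probe sets other than the 64 controls that reached 50 on at least 2 arrays. Two-sided p-values were adjusted by Benjamini-Hochberg within each of 4 comparisons. The scripts were tested on simulated data.

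The labels say the whole experiment was done 2 times, so run numbers pair the samples. Differences between runs correlated over 12075 probe sets at 0.34 between buds and flowers, −0.01 between buds and siliques, and 0.17 between flowers and siliques. The run entered as a term in an alternative.

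The members, the complex, operon, nuclear and marker lists, the tests and the alternatives were chosen with earlier results of these data known. By the rule for named genes, every member may be named, values on all arrays are given for genes called in any comparison and for the brightest gene of each complex, and of each nuclear list the brightest gene and the called gene of largest change are named. The list of mitochondrial genes by locus code matched no probe set, so these were taken by symbol after the gene table was seen. Adjusted p-values that change side with the run as a block stand beside the result. Alternatives covered the offset, filter, normalization, variance model, arrays fitted and leaving out each array.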

Additional observations from a re-analysis of the deposited data

How the results depend on the processing

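With 2 arrays a stage, a stage left with a single array is assumed to vary like the others, and calls near the threshold come and go. Over the 19 genes with a call, no call reversed in any comparison that an alternative could fit: 463 values kept their call and 192 lost it. Of values not called, 581 stayed so, 17 passed and 8 changed sign. The cause was not tested.

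The 10 calls of flowers against buds numbered 6 with only the arrays compared in the fit, and the 13 of siliques against flowers numbered 18, of which 12 were the same genes. The latter numbered 6 without the filter, where more probe sets are tested, and the 17 of flowers against the mean of the other stages numbered 8. For siliques against buds, 1 gene (rpoA) passed with the stricter filter, 2 (petA and rpoA) with median centring and 2 (rps4 higher and psbE lower) with the replicate block. With that replicate block the other comparisons gave 12, 13 and 17 calls.

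Leaving out 1 array at a time, the calls ranged from 0 to 13 for flowers against buds, 0 to 18 for siliques against flowers, 0 to 5 for siliques against buds and 0 to 22 for flowers against the mean of the other stages. The median for siliques against buds ranged from −0.12 (without buds 1) to 0.37 (without buds 2). In the same comparison and over the same arrays psaB ranged from −0.29 to 0.16, psaA from −0.46 to 0.11, rpl14 from −0.092 to 0.13, psaC from −0.17 to 0.53 and ndhA from −0.46 to 0.66. There ndhI was −0.063 after quantile normalization and psaB 0.010 after median centring. Both ways of counting probe sets gave the same values, since each gene had 1 probe set.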

Other observations

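Another 8 probe sets were paired with both copies of plastid genes in the inverted repeat, so none of them names a single gene. Of these 5 were tested, 1 fell from buds to flowers (median −0.77), 2 rose from flowers to siliques (median 1.19) and none was called between siliques and buds. Of all tested probe sets 6.13% fell and 7.23% rose in those comparisons, and 15.6% were called between siliques and buds.

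The other organelle genome on the array gave 22 probe sets, found by symbol. Their highest signal was 88.4, and 5 were tested. None of the 5 was called by limma in any of the 4 comparisons. In each of flowers against buds, siliques against flowers and siliques against buds 1 had an unadjusted p under 0.05. Of all tested probe sets 25.0%, 31.6% and 32.5% had such a p by limma there. The medians of the 5 were −0.34, 0.04 and −0.30 in those comparisons.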
